A study of Homo sapiens with 4 samples.

Results

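ATF4, ATF5, DDIT3, TRIB3, ASNS, CHAC1, SESN2, VLDLR and DDIT4 are genes of the integrated stress response and its targets. They were chosen by name and read by Ensembl gene ID, and all 9 were among the 17041 genes with an expression value. Of 3768 splice events, 4 lay in these genes, 1 in ATF5 and 3 in VLDLR, and the other 7 genes had no listed event. The study compared polyadenylated RNA in 2 RBM10 knockdown and 2 RBM10 wild type libraries of A549, a line grown from a human lung adenocarcinoma, all labelled with 1 batch. Knockdown cells carried a lentiviral shRNA against RBM10, a regulator of alternative splicing, and had been under puromycin at 1 µg/mL for 10 to 14 days. The labels name 1 shRNA and give neither a control construct nor puromycin for the wild-type cells, so loss of RBM10 cannot be told apart from transduction or selection. Nothing in the labels says that replicates were separate cultures. The p-values set the group difference against the spread within the groups of these 4 libraries, and that spread may be technical, so they may not extend to new cultures.

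In the integrated stress response, kinases that sense starvation, unfolded protein, heme loss or double-stranded RNA phosphorylate the initiation factor eIF2. General translation then falls, while ATF4 and ATF5 mRNAs are translated more, because short upstream reading frames in their leaders are read differently. ATF4 then switches on genes of amino acid supply and redox balance, and DDIT3, TRIB3 and CHAC1 under lasting stress. RNA levels, measured here, do not show the translation step.

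RBM10 RNA was at 11.6 and 10.9 RPKM (read number relative to gene length and sequencing depth) in the knockdown libraries and at 35.5 and 40.8 RPKM in wild-type cells, in the direction of the labels. Depth relative to the deepest library was 84.5% and 95.6% in knockdown and 99.0% and 100% in wild type. Of 6 epithelial and A549 markers, 4 were called higher in knockdown (KRT8, KRT18, KRT19 and EPCAM), CDH1 did not pass and AKR1B10 was lower. Of all tested genes, 15.3% were called higher and 7.03% lower (limma, adjusted p under 0.05). KRT18 was at 1731 and 1855 RPKM in knockdown and at 890 and 973 RPKM in wild type, and AKR1B10 at 1309 and 1442 RPKM in knockdown and at 2770 and 2687 RPKM in wild type. The part of these shifts in the results was not tested. Of 6 markers of blood, vessel and normal alveolar cells, 2 had a value. CD68 was at 3.49 and 3.57 RPKM in knockdown and 1.56 and 1.72 RPKM in wild type and was called higher (limma, adjusted p = 0.00101). PECAM1 was at 0.0130 RPKM or less in every library and was not tested.

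In knockdown cells ATF5 fell to 52.0% of its wild-type mean, while ATF4 itself, at 103%, did not pass the test. SESN2 and DDIT4, both inhibitors of the growth kinase mTORC1, rose to 146% and 130% of the wild-type mean, calls that several alternatives did not keep. DDIT3, TRIB3, ASNS and VLDLR stood between 108% and 120% of the wild-type mean and did not pass. Of the 9 genes, 8 were tested, of which 2 were higher and 1 was lower. Among all 10182 tested genes, 15.3% were called higher and 7.03% lower (limma on log2(RPKM + 1), Benjamini-Hochberg adjusted p under 0.05). The median log2 difference was 0.11 over the 8 tested genes and 0.02 over all tested genes. Quantile normalization turned the split of all calls to 1140 higher and 1031 lower, against 1555 higher and 716 lower without it.

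**Figure D1:**
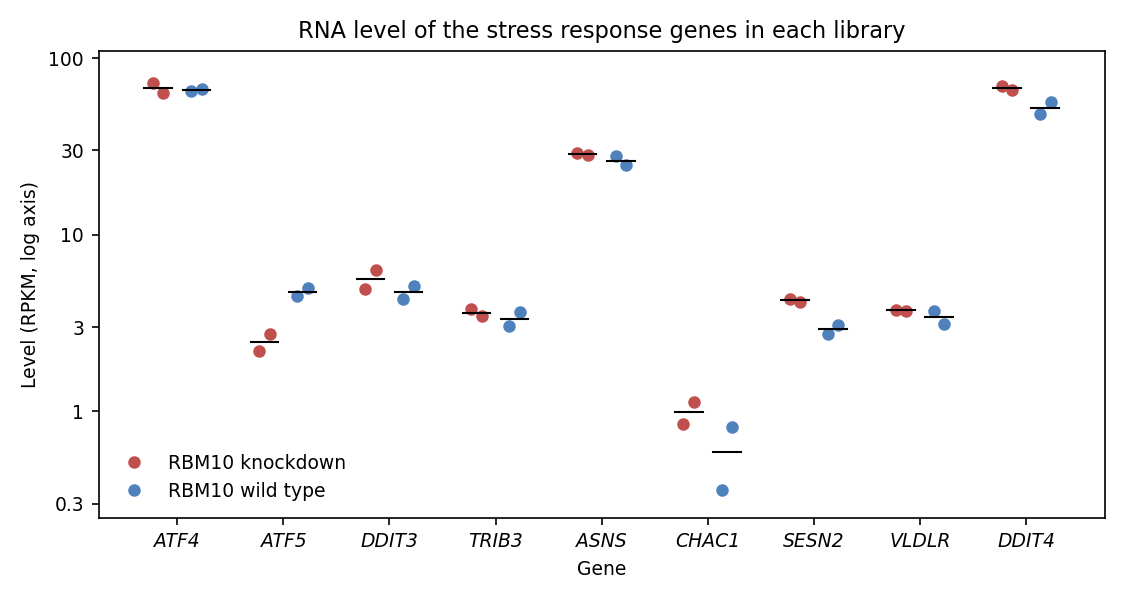
RNA level in RPKM on a log axis for each of the 9 genes, with RBM10 knockdown libraries in red, wild-type libraries in blue and the mean of each pair as a line. The ATF5 points lie at 2.21 and 2.74 RPKM in knockdown, below 4.51 and 5.00 RPKM in wild type, while the ATF4 points overlap.

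The level per gene length spanned a wide range. ATF4 and DDIT4 led, ASNS came next, and ATF5, DDIT3, TRIB3, SESN2 and VLDLR lay close together at a few RPKM. ATF4 ranked at the 96.1 to 96.5 percentile of all genes in the knockdown libraries and at the 96.0 to 96.1 percentile in the wild-type libraries. CHAC1 was lowest in every library. ATF4 and DDIT4 overlapped in knockdown, where both averaged 67.9 RPKM, and stood apart in wild type, with means of 65.9 and 52.2 RPKM. In wild type, neither ATF5 and DDIT3 nor TRIB3 and VLDLR differed in level beyond their spread.

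ATF4 (chromosome 22, 39519695 to 39522685, hg38) encodes the basic leucine zipper factor that carries out most of the transcriptional program. Its RNA was at 72.2 and 63.6 RPKM in knockdown cells and at 65.0 and 66.9 RPKM in wild-type cells. The groups overlapped, and the log2 difference was 0.04 (SE 0.10, limma, adjusted p = 0.818).

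ATF5 (chromosome 19, 49928702 to 49933935) encodes a close relative of ATF4 that is known for its part in the mitochondrial unfolded protein response. Its RNA was at 2.21 and 2.74 RPKM in knockdown cells and at 4.51 and 5.00 RPKM in wild-type cells. Both knockdown libraries lay below both wild-type libraries, as in 27.3% of tested genes, and the log2 difference was -0.73 (SE 0.12, limma, adjusted p = 0.00269). This call held under every setting tried, with log2 differences from -0.92 to -0.38 on scales that differ in pseudocount. The deposited values of each of the 9 genes were whole multiples of a step set by gene and library (relative tolerance 2e-08), which gives the smallest whole numbers that can stand behind them. For ATF5 these numbers were 195 and 273 in knockdown and 466 and 522 in wild type. If each unit is a separate read, counting error alone came to 7.16%, 6.05%, 4.63% and 4.38%. Relative to ATF4 in the same library, ATF5 stood at 3.07% and 4.31% in knockdown and at 6.94% and 7.48% in wild type (exact permutation test over the 4 libraries, two-sided p = 0.333, the smallest this design allows). Exons of NUP62, a nuclear pore gene on the opposite strand, share 21.2% of the ATF5 exon bases. NUP62 was at 2.83 and 3.41 RPKM in knockdown and at 3.83 and 4.33 RPKM in wild type (log2 difference -0.30, adjusted p = 0.111), and its part in the ATF5 values was not tested. The library kit keeps strand, per the labels, but whether counting used it is not stated.

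The nearest profiles to ATF5 over the 4 libraries, by Euclidean distance of centred log2(RPKM + 1) values, were those of PSPC1P1 (0.0519), CCDC86 (0.0692) and RGS20 (0.114). For ATF4 the nearest were SLC35F6 (0.00832), N6AMT1 (0.0109) and COQ6 (0.0141), with 308 genes within 0.1, against 2 for ATF5. A flat profile such as that of ATF4 is shared by many genes, so these names describe 4 libraries only.

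DDIT3 (chromosome 12, 57516588 to 57521737), also called CHOP, encodes a C/EBP family factor linked to cell death under lasting stress. It was at 4.95 and 6.34 RPKM in knockdown cells and at 4.34 and 5.10 RPKM in wild-type cells, with overlap and a log2 difference of 0.21 (SE 0.14, adjusted p = 0.296). Exons of MARS1 on the opposite strand share 27.2% of its exon bases, and MARS1 was at 61.8 and 61.1 RPKM in knockdown and at 69.0 and 69.0 RPKM in wild type.

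TRIB3 (chromosome 20, 362835 to 397559) encodes a pseudokinase that binds ATF4 and DDIT3 and restrains them. It was at 3.79 and 3.46 RPKM in knockdown cells and at 3.04 and 3.67 RPKM in wild-type cells. The groups overlapped, and the log2 difference of 0.09 (SE 0.12, adjusted p = 0.636) turned to -0.0288 under quantile normalization and to -0.0138 without wild-type replicate 1.

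ASNS (chromosome 7, 97852118 to 97872542), asparagine synthetase, is a classic ATF4 target of amino acid starvation. It was at 28.8 and 28.4 RPKM in knockdown cells and at 27.8 and 24.8 RPKM in wild-type cells, a log2 difference of 0.12 (SE 0.10, adjusted p = 0.430).

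CHAC1 (chromosome 15, 40952962 to 40956519) encodes an enzyme that breaks down glutathione. It was at 0.847 and 1.14 RPKM in knockdown cells and at 0.361 and 0.811 RPKM in wild-type cells. Its group means of 0.991 and 0.586 RPKM fell under the filter of 1 RPKM, so it was not tested, just outside that limit. The whole numbers behind these values were 52 and 79 in knockdown and 26 and 59 in wild type. The exact 95% Poisson intervals cover counting error only and take each unit of these numbers as a separate read, which is not stated. Those of the wild-type libraries ran from 0.236 to 0.529 RPKM and from 0.618 to 1.05 RPKM and did not meet. On that assumption the wild-type libraries differed from each other by more than counting error. Knockdown replicate 1 and wild-type replicate 2 were close, and the log2 difference was 0.34.

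To show the motif by which ATF4 and its C/EBP partners bind, promoter windows of RefSeq (GRCh38.p14, 250 bases before to 50 after a start, 16 windows of the 9 genes) were searched on both strands for the C/EBP-ATF response element TGATGNAA. It was found in 1 window of ASNS and 1 of CHAC1, and in 3.62% of all 35116 windows. The matches began 68 and 209 bases before the RefSeq start of that window. Both lie inside the gene spans given above, so they are not upstream of every annotated start. The full cAMP response element TGACGTCA (1.85% of all windows) and the ER stress response element (0.0769%) had no match in the windows of the 9 genes. The sites are shown with the match in capitals, in the gene's direction, and the CHAC1 match is on the opposite strand.
ASNS, chr7:97872458-97872487, minus strand: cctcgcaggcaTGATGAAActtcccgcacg
CHAC1, chr15:40953251-40953280, plus strand: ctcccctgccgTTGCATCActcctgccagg
Of the genes with the motif, ASNS did not pass the expression test and CHAC1 was not tested, and the 3 genes that passed the test, ATF5, SESN2 and DDIT4, had no match in these windows.

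SESN2 (chromosome 1, 28259527 to 28282491), sestrin 2, binds leucine and holds back mTORC1 when that amino acid is scarce. It was at 4.35 and 4.17 RPKM in knockdown cells and at 2.74 and 3.10 RPKM in wild-type cells. Both knockdown libraries lay above both wild-type libraries, as in 34.3% of tested genes, and the log2 difference was 0.42 (SE 0.11, limma, adjusted p = 0.0254). The whole numbers behind the values were 503 and 546 in knockdown and 372 and 425 in wild type. The call was lost under quantile normalization (adjusted p = 0.0807), with no filter on low values (0.0804), and without knockdown replicate 1 (0.128), knockdown replicate 2 (0.0807) or wild-type replicate 1 (0.0975).

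DDIT4 (chromosome 10, 72273920 to 72276036), also called REDD1, inhibits mTORC1 through the TSC complex and is also known to answer to hypoxia, glucocorticoids and p53. It was at 69.6 and 66.1 RPKM in knockdown cells and at 48.4 and 56.1 RPKM in wild-type cells. Both knockdown libraries lay above both wild-type libraries, as in 34.3% of tested genes, and the log2 difference was 0.37 (SE 0.10, limma, adjusted p = 0.0290). The same order was seen in ASNS and VLDLR, which did not pass, and in CHAC1, which was not tested. Exons of DDIT4-AS1 on the opposite strand share 41.2% of the DDIT4 exon bases, and no value of that gene was analysed here. The call was lost with no filter on low values (adjusted p = 0.0824), and without knockdown replicate 1 (0.154), knockdown replicate 2 (0.0640) or wild-type replicate 1 (0.127). SESN1, the p53-regulated relative of SESN2, also rose, at 1.56 ± 0.0584 RPKM in knockdown and 0.951 ± 0.140 RPKM in wild type (SD, n = 2 each, limma, adjusted p = 0.0326). SESN1 entered the test only through the knockdown group, where it is high, and its call was lost with no filter, without knockdown replicate 1 or either wild-type replicate and under quantile and cyclic loess normalization, at an adjusted p of up to 0.168.

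VLDLR (chromosome 9, 2621834 to 2660053) encodes the very low density lipoprotein receptor, a lipoprotein and reelin receptor that ATF4 is known to induce. It was at 3.74 and 3.72 RPKM in knockdown cells and at 3.69 and 3.14 RPKM in wild-type cells. The log2 difference of 0.10 (SE 0.12, adjusted p = 0.564) turned to -0.0127 under quantile normalization.

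The splicing values are PSI, a share of reads over an examined junction, which is listed with a background junction. The formula is not stated. The listed VLDLR events all concern exon 16 (numbered as in the authors' table, chromosome 9, 2651415 to 2651498). The junction into this exon had a PSI of 19.3% and 26.9% in the knockdown libraries and of 44.9% and 39.3% in the wild-type libraries. The junction out of it had a PSI of 32.4% and 36.7% in knockdown and of 54.2% and 45.6% in wild type. The skipping junction had a PSI of 58.2% and 51.4% in knockdown and of 33.3% and 40.2% in wild type. The skipping junction and the junction out of the exon are each listed as the other's background. Their PSI summed to 90.6% and 88.0% in knockdown and to 87.6% and 85.8% in wild type, so further reads enter the share. All 3 events held both knockdown libraries on one side of both wild-type libraries, toward less inclusion, and the events share reads of 1 exon, so they are not separate findings. Groups lay apart upward in 27.9% and downward in 26.3% of 3744 tested events. The differences were -19.0 (SE 8.71), -15.4 (SE 8.73) and 18.01 (SE 8.74) percentage points, and none passed limma's test (adjusted p = 0.281, 0.314 and 0.282).

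Exon 16 has 84 bases, a multiple of a codon, and by the authors' annotation it adds a stretch of clustered O-linked sugars outside the cell. The exon is shown from GENCODE v29 (GRCh38) because the VLDLR result turns on it, with codons for serine or threonine, the residues that carry O-linked sugars, in capitals. Of its 27 whole codons 12 are of that kind (44.4%), against 116 of 873 in the whole coding sequence (13.3%).
VLDLR exon 16, chr9:2651415-2651498, plus strand: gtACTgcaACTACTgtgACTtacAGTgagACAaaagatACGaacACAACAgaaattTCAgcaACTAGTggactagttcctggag

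**Figure D2:**
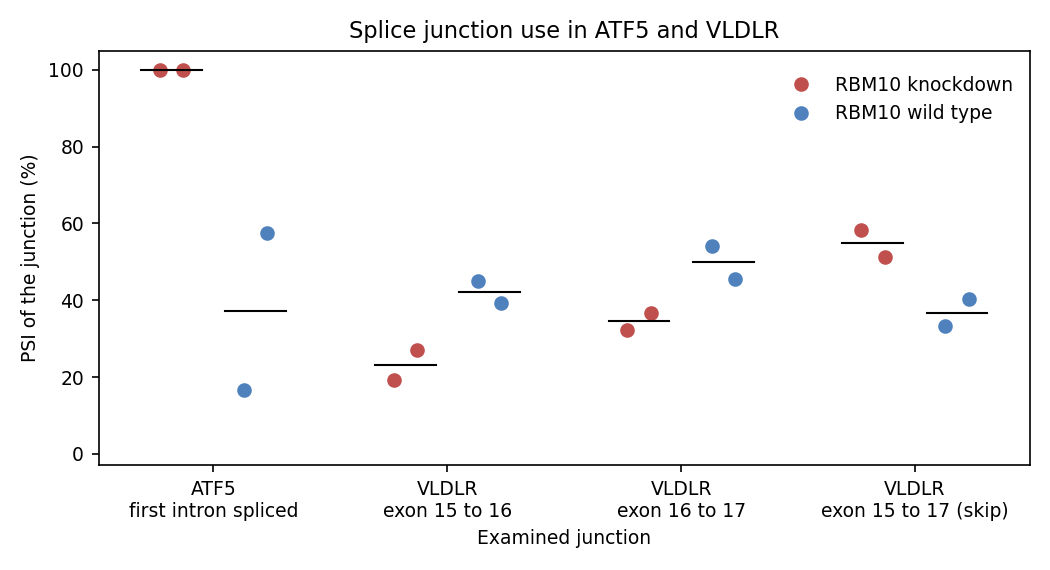
PSI in percent of the 4 listed junction events of ATF5 and VLDLR, with RBM10 knockdown libraries in red, wild-type libraries in blue and the mean of each pair as a line. The inclusion junctions of VLDLR exon 16 lie at 19.3% to 36.7% in knockdown and at 39.3% to 54.2% in wild type, and the skipping junction at 51.4% and 58.2% in knockdown and at 33.3% and 40.2% in wild type.

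In ATF5 the listed event compares the splice from the first exon to the second (chr19:49929006-49929243) with reads that run across position 49929142 to 49929143 inside the same intron. The spliced junction had a PSI of 100% in both knockdown libraries and of 16.7% and 57.5% in the wild-type libraries. The groups did not overlap, but the wild-type libraries differed from each other by most of the range. The difference was 62.9 percentage points (SE 14.1), with an adjusted p of 0.259 in limma and an unadjusted p of 0.00371. Of the 4 events in the 9 genes, 0 passed limma's adjusted test and 1, that of ATF5, had an unadjusted p under 0.05, against 0.107% and 18.4% of all tested events with a difference of 0.1 or more. Without wild-type replicate 1 the difference was 42.5 percentage points, and without wild-type replicate 2 it was 83.3. Read counts behind the PSI are not in the table, so the depth of these shares is unknown. A PSI of 1 in both knockdown libraries with lower values in both wild-type libraries was found in 15 of 609 tested intron-retention events (2.46%), and the reverse in 20 (3.28%).

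The authors' table names this event intron retention. Position 49929143 is the annotated start of a second ATF5 transcript, 137 bases beyond the end of the first exon, so that transcript as annotated begins just past the boundary and does not cross it. An exon of NUP62 on the opposite strand runs across the whole 236-base intron, the boundary included, and its part in the background reads was not tested. The splice sites are shown from RefSeq (GRCh38.p14, plus strand) because the event rests on them, with the intron's first and last bases, GT and AG, in capitals.
ATF5 donor, chr19:49928997-49929026: gagggaagagGTcggatccccagctgagag
ATF5 acceptor, chr19:49929223-49929252: acagtctcttctcactacAGtgtcgccgcc

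**Figure D3:**
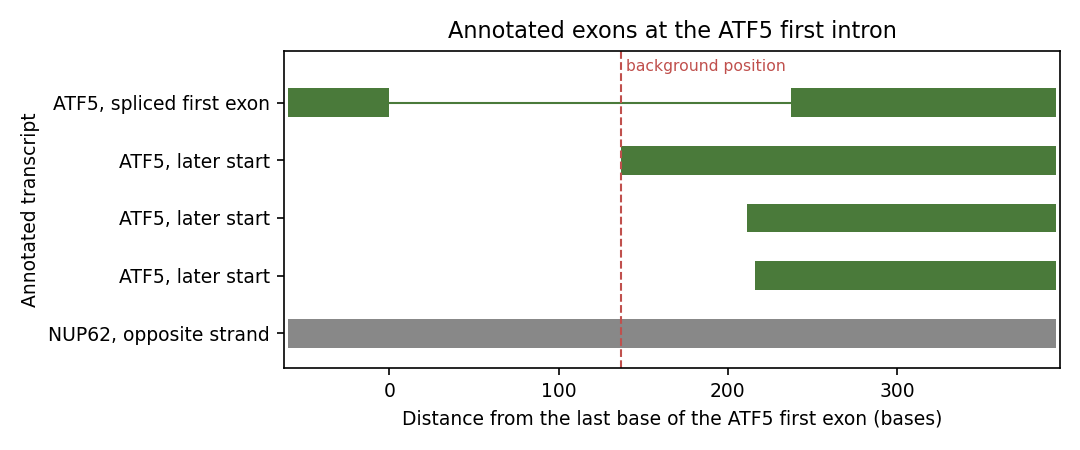
Annotated exons (GENCODE v29) around the first intron of ATF5, by distance in bases from the last base of the first exon, of which 60 bases are drawn. The dashed line marks the position of the background reads, 137 bases into the intron, which is the start of a later ATF5 transcript and lies inside a NUP62 exon on the opposite strand.

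The leaders of these transcripts differ in upstream start codons, which bear on translation. The annotated ATF5 transcript with the spliced first exon has a leader of 582 bases with 6 upstream ATG codons, and the one that starts at 49929143 has a leader of 377 bases with 2. Both hold an upstream reading frame of 59 codons that overlaps the start of the ATF5 coding sequence. In ATF4, the 3 annotated coding transcripts have leaders of 280 to 882 bases with 3 to 7 upstream ATG codons, and each has at least 1 upstream frame that overlaps the coding start. CHAC1 has 0 to 4 upstream ATG codons in 5 transcripts and ASNS 0 to 3 in 7. DDIT3 has 2 to 5 upstream ATG codons in 5 transcripts, TRIB3 2 to 3 in 2 transcripts and SESN2 1 in its single transcript. VLDLR and DDIT4 have 0. These are features of the annotation (GENCODE v29), and use of each start in A549 cells was not analysed here.

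The other genes of the pathway were read as 8 lists with 92 tested members, of which 15 rose and 6 fell, with a median log2 difference of 0.04 against 0.02 over all tested genes. Among all tested genes 22.3% were called in either direction, 15.3% higher and 7.03% lower, and these shares apply to each list below. Of the 15 that rose, 4 (ALDH1L2, ATF3, BBC3 and SESN1) had a wild-type mean under 1 RPKM and so entered the test only through the group where they are high. Of these 4 calls, that of ALDH1L2 was kept with no filter. The eIF2 kinases and regulators had 0 of 12 past limma's adjusted test, with 1 higher and 2 lower at an unadjusted p under 0.05, against 22.0% higher and 13.6% lower among all tested genes. EIF2AK1, the heme-regulated kinase, was at 27.5 ± 1.39 RPKM in knockdown and 27.5 ± 2.49 RPKM in wild type (SD, n = 2 each). EIF2B1, a subunit of the exchange factor that recycles eIF2, was at 27.6 and 29.2 RPKM in knockdown and at 26.5 and 23.3 RPKM in wild type and did not pass.

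Among amino acid synthesis targets of ATF4, 3 of 11 rose and 0 fell, against 15.3% higher and 7.03% lower among all tested genes. All 3 held their call under the 13 alternatives. CTH, which makes cysteine from cystathionine, was at 3.97 ± 0.180 RPKM in knockdown and 1.70 ± 0.196 RPKM in wild type (log2 difference 0.88, limma, adjusted p = 0.000663). CBS, the enzyme before it in transsulfuration, was at 10.7 ± 0.0572 RPKM in knockdown and 6.83 ± 0.498 RPKM in wild type (adjusted p = 0.00454). ALDH1L2, a mitochondrial folate enzyme, was at 1.88 ± 0.391 RPKM in knockdown and 0.700 ± 0.0759 RPKM in wild type (adjusted p = 0.00256). PHGDH and PSAT1 of serine synthesis were in the list and did not pass.

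Amino acid transporters split, with 2 of 9 higher and 2 lower, against 15.3% and 7.03% of all tested genes. The lower pair were SLC7A5 and SLC3A2, the light and heavy chain of the leucine transporter LAT1, and both calls held under the 13 alternatives. SLC7A5 was at 143 and 146 RPKM in knockdown cells and at 251 and 248 RPKM in wild-type cells (log2 difference -0.79, limma, adjusted p = 0.000229). SLC3A2 was at 183 and 175 RPKM in knockdown and at 286 and 289 RPKM in wild type (log2 difference -0.68, adjusted p = 0.000566). The higher ones were SLC43A1, another transporter of large neutral amino acids, at 2.41 ± 0.571 RPKM in knockdown and 1.06 ± 0.0932 RPKM in wild type, and the glycine transporter SLC6A9, at 2.25 and 2.54 RPKM in knockdown and 1.54 and 1.52 RPKM in wild type. The SLC43A1 call was lost with no filter (adjusted p = 0.0571). The SLC6A9 call was lost without knockdown replicate 2 or either wild-type replicate, among 7 of the 13 alternatives, with a highest adjusted p of 0.125.

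Of 11 genes of the tRNA synthetase list 1 rose, CARS1, at 23.8 ± 0.0258 RPKM in knockdown and 18.7 ± 0.590 RPKM in wild type (limma, adjusted p = 0.0394), a call lost without any single library and under 8 of the 13 alternatives. IARS1, at 63.9 ± 9.12 RPKM in knockdown and 81.7 ± 10.9 RPKM in wild type, did not pass, though it did without knockdown replicate 2 or wild-type replicate 2, and NARS1 did not pass. Among other targets of ATF4 and DDIT3, 3 of 10 tested rose and 2 fell, against 15.3% and 7.03% of all tested genes. STC2, stanniocalcin 2, was at 2.91 ± 0.102 RPKM in knockdown and 1.13 ± 0.0637 RPKM in wild type (log2 difference 0.87, adjusted p = 0.000510). CDKN1A and BBC3, at 22.7 ± 1.03 and 1.69 ± 0.177 RPKM in knockdown and at 13.7 ± 1.57 and 0.875 ± 0.183 RPKM in wild type, are also p53 targets, and the BBC3 call was lost with no filter, under quantile and cyclic loess normalization and without wild-type replicate 1, at an adjusted p of up to 0.0759. SQSTM1, the autophagy receptor p62 and also an NRF2 target, was at 91.0 ± 2.87 RPKM in knockdown and 165 ± 15.5 RPKM in wild type (log2 difference -0.85, adjusted p = 0.000319). GDF15, a secreted stress factor, was at 4.67 ± 0.237 RPKM in knockdown and 6.90 ± 1.58 RPKM in wild type. The GDF15 call was lost with a pseudocount of 5, with no filter, and without knockdown replicate 2 or wild-type replicate 2.

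Among partners and relatives of the 9 genes, 5 of 15 tested rose and 2 fell, against 15.3% and 7.03% of all tested genes. Besides SESN1, the higher ones were BATF3, JDP2, ATF3 and ATF1, all basic leucine zipper factors. BATF3 was at 4.35 ± 0.201 RPKM in knockdown and 2.19 ± 0.326 RPKM in wild type (log2 difference 0.75, limma, adjusted p = 0.00205). ATF3, itself induced by ATF4, was at 1.22 ± 0.114 RPKM in knockdown and 0.631 ± 0.123 RPKM in wild type (adjusted p = 0.0210). JDP2 was at 3.39 ± 0.111 and 2.11 ± 0.456 RPKM and ATF1 at 12.3 ± 0.214 and 8.94 ± 0.171 RPKM in knockdown and wild type. The lower ones were NUPR1, a stress-induced chromatin protein, at 1.22 ± 0.0282 RPKM in knockdown and 1.99 ± 0.457 RPKM in wild type, and LRP8, the closest relative of VLDLR, at 8.10 ± 0.0755 and 10.5 ± 0.00974 RPKM. The JDP2, ATF3, NUPR1 and LRP8 calls were lost with no filter. Those of JDP2 and ATF3 were also lost under quantile normalization and without wild-type replicate 1, and that of ATF3 under cyclic loess normalization. The ATF1 call was lost without either knockdown replicate. That of NUPR1 was lost without knockdown replicate 2 or wild-type replicate 2, and that of LRP8 with any single library left out. Under quantile normalization 2 of the 15 were higher and 2 lower. BATF3 held its call under the 13 alternatives.

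The IRE1 and ATF6 arms of the unfolded protein response, which raise chaperones and degradation in the endoplasmic reticulum, had 1 of 15 tested genes higher and 0 lower. HERPUD1, of ER-associated degradation, was at 10.5 ± 0.134 RPKM in knockdown and 7.93 ± 0.567 RPKM in wild type (limma, adjusted p = 0.0387). The HERPUD1 call was lost with no filter, under quantile normalization, and without either knockdown replicate or wild-type replicate 2. The chaperones HSP90B1 and CALR were at 256 ± 21.9 and 181 ± 0.660 RPKM in knockdown and at 246 ± 24.9 and 211 ± 4.66 RPKM in wild type, and neither passed. The mitochondrial unfolded protein response, in which ATF5 takes part, had 0 of 9 genes past limma's adjusted test and 5, all lower, at an unadjusted p under 0.05, against 13.6% of all tested genes. Under quantile or cyclic loess normalization, and without either wild-type replicate, 1 was called lower. Its median log2 difference was -0.26, with 7 of 9 genes lower in both knockdown libraries than in both wild-type libraries, against 27.3% of all tested genes. HSPD1 and HSPE1, the mitochondrial chaperonin pair, were at 270 ± 18.1 and 187 ± 0.160 RPKM in knockdown and at 299.7 ± 35.2 and 225 ± 14.1 RPKM in wild type. Over all tested genes at 100 RPKM or more the median log2 difference was -0.11. It was -0.05 at 10 to 100 RPKM and 0.06 at 1 to 10 RPKM, so level went with direction. The mitochondrial genes lay in each of these ranges, and the part of level in the lists was not tested.

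**Figure D4:**
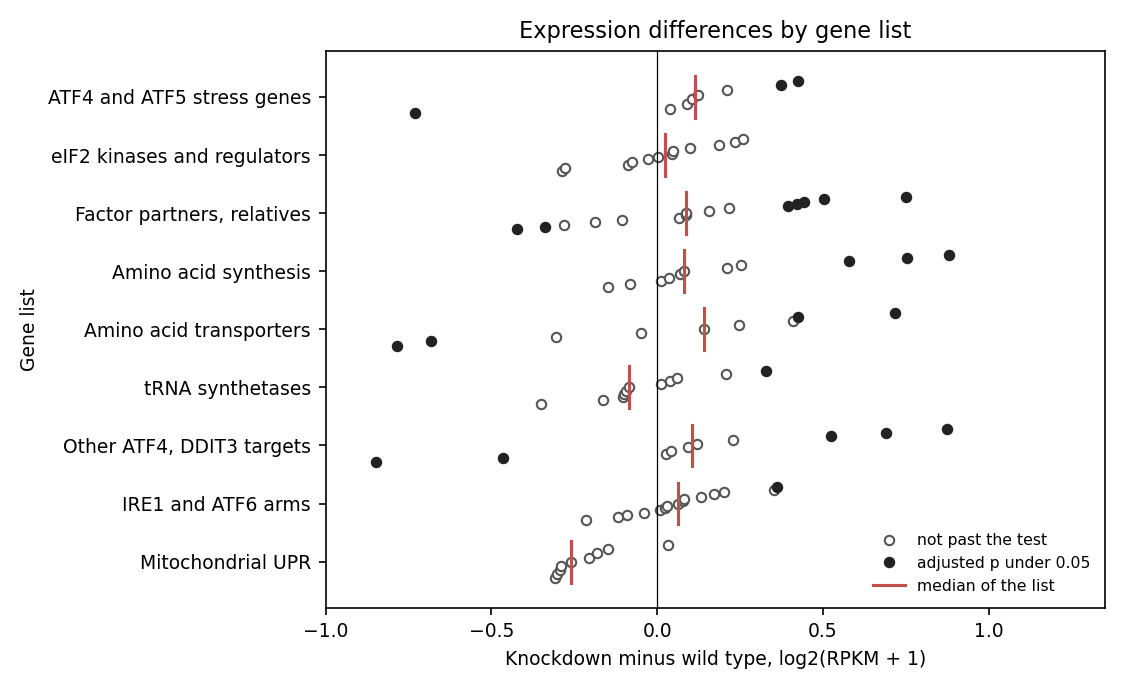
Difference between knockdown and wild type on the log2(RPKM + 1) scale for each tested gene of the 9 stress genes and of the 8 pathway lists. Filled points passed limma's adjusted test, open points did not, and the red line is the median of a list. The stress genes hold 2 filled points to the right of 0 and ATF5 to the left at -0.73, and the mitochondrial list has a median of -0.26 with 0 filled points.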

How the data were processed

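The authors deposited a table of gene values with the form of RPKM and a table of PSI fractions for splice junctions. Per the submitters' processing notes, STAR 2.6.1 and hg38 were used, and the sources used here do not state the counter, the annotation, the splicing caller or any use of strand. No header names the RPKM unit: it was taken from the values, which are whole multiples of a step that depends on gene and library, and the steps gave relative depth. The labels put depth at about 40000000 stranded read pairs, 100 bases long, and PSI depth is unknown. The deposited PSI fractions cover events with a listed dPSI of 0.15 or more, read here as a spread of PSI over the libraries. It is not the group difference: for ATF5 it was 0.425, against a group difference of 62.9 percentage points. A gene with no listed event is not shown to be spliced alike.

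Symbols were matched for 16921 of 17041 gene IDs. The filter kept the 10182 genes that averaged at least 1 RPKM in a group. They were compared on log2(RPKM + 1), which understates changes of low genes, using limma 3.58.1 (R 4.3.3, trended prior, two-sided, no covariates), and were called below 0.05 after Benjamini-Hochberg adjustment. The 3744 PSI events with all 4 values had the same test without trend, and a call also needed a shift of at least 0.1. Both tests were run on simulated data with planted changes. The planted expression changes were larger than those of the 9 genes, and the simulated PSI held less noise than these data. The simulations therefore do not show how often changes of the size seen here are found. Alternatives changed the pseudocount, filter, normalization, variance model, PSI scale and block, or left out a library. Members and lists were chosen with earlier results of these data known. Named were the 9 genes, RBM10, up to 5 called genes of each list with the largest differences (with the 2 of highest level where fewer than 2 passed) and the 3 nearest profiles. LRP8, SESN1, PHGDH, PSAT1, KRT18, AKR1B10, CD68, PECAM1, the opposite-strand genes and those of the closing observations were named after their values were seen.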

Additional observations from a re-analysis of the deposited data

How the results depend on the processing

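The ATF5 call held under all 13 alternatives. The count of called genes among the 9 was 3, and it was 1 with no filter on low values. Of these 3 genes, ATF5 alone kept its call without knockdown replicate 1, knockdown replicate 2 or wild-type replicate 1. Over the 8 lists the count of 21 became 10 with no filter. Of the 9 genes, 3 turned sign, none of them called: ATF4 without knockdown replicate 1 (-0.0524, with leave-one-out values up to 0.13), TRIB3 under quantile normalization (-0.0288) and without wild-type replicate 1 (-0.0138, with leave-one-out values up to 0.19), and VLDLR under quantile normalization (-0.0127), and the cause was not tested. Of the named list genes, EIF2AK1, NARS1 and HSP90B1, not called, turned sign in 3, 2 and 2 alternatives. CHAC1 was tested with no filter (limma, adjusted p = 0.270). Without knockdown replicate 1 it passed the filter only through the high library that remained, so no test of it is given. With a library left out, the lone library of its group is assumed to vary like the pair. Leaving out a library left 0 PSI events called, against 4 with all libraries, where 2 against 1 libraries leave less information.

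The replicate numbers are not stated to pair the samples, and deviations of same-numbered libraries had a correlation across genes of -0.444 in expression and -0.0396 in PSI. With the replicate number as a block, 1718 genes were called against 2271, 1 of the 9 genes and 62 PSI events, among them 1 of the 9 genes' events, that of ATF5 (adjusted p = 0.00216). The SESN2 and DDIT4 calls were lost there (adjusted p = 0.0810 and 0.0796). A crossed block, chosen after seeing the data, gave 4196 called genes, 38 in the lists, with 6 of the 9 mitochondrial genes lower.

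Depth limits CHAC1 most, and the depth of each PSI is unknown.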

Other observations

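In the 8 pathway lists 6 genes had 8 listed splice events, of which 0 had an unadjusted p under 0.05 in limma and 0 passed adjustment, while the groups lay apart in 4, against 54.2% of all tested events. LRP8, the reelin receptor most like VLDLR, had a cassette exon (chromosome 1) whose inclusion junction had a PSI of 76.1% and 66.4% in knockdown and of 58.8% and 48.6% in wild type (difference 17.6 percentage points, SE 9.19, adjusted p = 0.293). Its inclusion thus had the opposite sign to that of VLDLR exon 16, and the difference between the receptors was not tested. PYCR1, of proline synthesis, had a junction PSI of 71.1% and 75.1% in knockdown and of 56.8% and 55.4% in wild type (difference 17.02 percentage points, SE 8.39, adjusted p = 0.284). BBC3, which encodes the death factor PUMA, had inclusion junctions at 28.05% and 43.3% and at 30.1% and 33.3% in knockdown, against 44.1% and 59.1% and 51.2% and 38.9% in wild type.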
